A study of Mus musculus with 6 samples.

Results

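The 10 genes described here, Homer1, Nptx2, Pcsk1, Inhba, Ptgs2, Vgf, Scg2, Gadd45b, Nr4a2 and Nr4a3, are delayed activity-induced effector genes. They were chosen by name: every isoform whose transcript name, without its final number, was one of these symbols was taken, which gave 39 of the 133944 isoforms and 10 of the 53354 gene symbols with deposited counts. The choice was made with earlier results of these data known. The counts came from RNA-seq of whole hippocampus of 3 N-cre mice (Nes-Cre, the Ctrl animals) and 3 N-cre;Fox1 mice (which also carry R26-Rbfox1 +/flox), all on a C57BL/6 background and 3 months of age. Both genotypes carry Cre under the nestin promoter. In the hippocampus, the study's reporter staining showed Cre activity in dentate granule cells and in CA1 and CA3 pyramidal cells. Its marker staining found no overlap of Rbfox1 protein with the glial marker GFAP. The paper calls the Cre expression neuron-specific but describes no co-staining of the reporter with a glial marker. The N-cre;Fox1 mice carry in addition a copy of the Rbfox1 cDNA in the R26 locus behind the CAG promoter and a floxed STOP cassette that Cre removes. The comparison asks whether the effector genes had other levels, or other isoforms, in hippocampus with Rbfox1 up-regulation. In whole tissue, fewer cells of a type and less RNA per cell cannot be told apart.

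Neuronal firing and the calcium entry that goes with it induce genes in waves. The rapid immediate early genes, many of them transcription factors such as Fos and Egr1, need no new protein synthesis, and the delayed genes that follow encode proteins that act on the synapse, such as scaffolds, secreted factors and peptide precursors. Homer1 is the example with an isoform switch: long Homer1 proteins carry a coiled coil, assemble into multimers and link synaptic receptors to Shank, whereas the activity-induced short protein Homer1a ends early, lacks the coiled coil and competes with the long proteins. Many genes of both waves respond to CREB, the factor that binds the cAMP response element (CRE), whose full palindrome is TGACGTCA and whose core is TGACG.

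The promoters are shown first because the genes are grouped by a shared induction. RefSeq promoters on GRCm38.p6, 250 bases before to 50 bases after a gene start, matched 8 of the 10 genes, all but Nptx2 and Vgf. The full CRE was present in the promoters of 2 of these 8 genes, Pcsk1 and Scg2, and in 1.79% of 32851 mouse promoters. The core, searched on both strands and counted also where it lies within a full CRE, was present in 6 of the 8 genes, Homer1, Pcsk1, Ptgs2, Scg2, Nr4a2 and Nr4a3, and in 20.8% of all promoters. The AP-1 site TGANTCA, the NBRE AAAGGTCA, which NR4A receptors bind, and the CArG box of serum response factor were in none of the 8, and in 7.81%, 1.51% and 1.63% of all promoters. These letter matches are descriptions of the windows and say nothing of binding in these animals. The promoters of the 5 genes with the full CRE or with at least 3 cores follow, with the matches in capitals.
Homer1 promoter, chr13:93303507-93303806, plus strand: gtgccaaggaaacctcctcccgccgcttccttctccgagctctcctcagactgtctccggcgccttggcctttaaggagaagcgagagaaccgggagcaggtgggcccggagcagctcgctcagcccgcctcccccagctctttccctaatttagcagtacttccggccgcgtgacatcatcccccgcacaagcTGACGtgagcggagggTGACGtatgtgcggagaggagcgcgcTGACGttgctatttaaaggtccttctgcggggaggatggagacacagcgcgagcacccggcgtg
Pcsk1 promoter, chr13:75089607-75089906, plus strand: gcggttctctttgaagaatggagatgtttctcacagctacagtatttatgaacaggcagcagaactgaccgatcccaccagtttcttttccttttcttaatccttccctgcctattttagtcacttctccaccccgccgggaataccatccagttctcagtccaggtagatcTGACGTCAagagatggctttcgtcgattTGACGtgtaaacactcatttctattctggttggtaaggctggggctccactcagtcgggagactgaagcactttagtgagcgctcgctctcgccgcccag
Scg2 promoter, chr1:79439977-79440276, minus strand: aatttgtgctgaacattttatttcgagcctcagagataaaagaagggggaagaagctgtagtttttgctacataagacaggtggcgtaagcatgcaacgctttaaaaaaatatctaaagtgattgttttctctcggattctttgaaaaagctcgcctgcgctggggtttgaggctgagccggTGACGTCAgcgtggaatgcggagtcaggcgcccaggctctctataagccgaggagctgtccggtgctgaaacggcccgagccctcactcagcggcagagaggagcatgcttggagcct
Nr4a2 promoter, chr2:57123954-57124253, minus strand: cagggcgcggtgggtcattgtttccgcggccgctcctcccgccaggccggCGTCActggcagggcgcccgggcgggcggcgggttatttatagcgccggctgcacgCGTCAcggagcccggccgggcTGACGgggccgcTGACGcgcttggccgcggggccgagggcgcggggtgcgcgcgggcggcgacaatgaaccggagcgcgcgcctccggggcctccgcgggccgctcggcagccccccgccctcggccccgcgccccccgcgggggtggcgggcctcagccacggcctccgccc
Nr4a3 promoter, chr4:48045055-48045354, plus strand: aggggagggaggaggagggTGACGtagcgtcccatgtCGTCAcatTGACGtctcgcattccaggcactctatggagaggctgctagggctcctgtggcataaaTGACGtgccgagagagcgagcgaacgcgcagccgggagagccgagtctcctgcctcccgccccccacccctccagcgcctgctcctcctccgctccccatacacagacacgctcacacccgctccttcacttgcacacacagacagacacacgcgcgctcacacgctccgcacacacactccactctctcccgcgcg
In the Homer1 promoter the cores began at positions -56, -40 and -14 from the start site. The full CRE began at -78 in Pcsk1 and at -68 in Scg2. Nr4a2 had 4 cores between -200 and -111, and Nr4a3 had 4 between -231 and -147. The Homer1 window belongs to the start of Homer1-207, the most upstream of the isoforms that were tested. The more abundant Homer1-204 and Homer1-203 start downstream of that window, at chr13:93304495 and chr13:93304799. A second Homer1 promoter, at the start of the long isoform Homer1-202, had no match to any of the motifs. The Nr4a2 window belongs to the start of Nr4a2-203 and Nr4a2-206, and Nr4a2-201 starts downstream of it, at chr2:57115038. That of Nr4a3 belongs to Nr4a3-204, which did not pass the low count filter. The tested Nr4a3-201 starts inside that window, at chr4:48045153, upstream of the site from which the positions are counted.

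The 6 libraries held 40463587 to 62141336 expected counts each. Replicate 1 of both genotypes had 27386 (N-cre) and 22346 (N-cre;Fox1) counts of Xist, the transcript of the inactive X chromosome in females, and the other 4 mice had 17 to 22. Levels are given in CPM, which scales the counts to the library total, here after TMM normalization. Choroid plexus markers summed to 28.99 to 2269 CPM in N-cre and 29.71 to 5134 CPM in N-cre;Fox1 mice, with the high values in N-cre replicate 3 and N-cre;Fox1 replicate 2. The 8 general neuronal markers, such as Snap25 and Map2, had log2 fold changes of -0.05 to 0.00, and each was detected in every mouse. Rbfox1 itself had 288.0, 271.8 and 276.9 CPM in N-cre and 300.3, 257.2 and 287.9 CPM in N-cre;Fox1 mice as a gene sum, which overlapped. Its isoform Rbfox1-202 had 33.1, 33.59 and 35.52 CPM in N-cre and 45.89, 40.91 and 44.44 CPM in N-cre;Fox1 mice. All 3 of the latter were higher, with an adjusted p of 0.623 in edgeR's quasi-likelihood test over all isoforms. For N-cre;Fox1 hippocampus the paper reports modestly more Rbfox1 mRNA (data not shown) and, by immunoblot, more Rbfox1 protein. The gene sum here did not separate the genotypes.

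Of the 10 effector genes, 9 had a higher mean in N-cre;Fox1 hippocampus and 1, Ptgs2, a lower mean. The log2 fold changes ranged from -0.10 for Ptgs2 to 0.47 for Nr4a3, with a median of 0.27 against 0.00 over all 18925 genes tested. None of the 10 passed an adjusted p of 0.05 (edgeR quasi-likelihood test, Benjamini-Hochberg over all genes), a threshold passed by 0.0264% of all genes. At an unadjusted p under 0.05, 6 of the 10 were higher, Homer1, Inhba, Scg2, Gadd45b, Nr4a2 and Nr4a3, and 0 lower, where 3.88% of all genes were higher and 2.43% lower. In Homer1, Inhba, Nr4a2 and Nr4a3 all 3 N-cre;Fox1 mice exceeded all 3 N-cre mice, an ordering seen for 6.54% of all genes, and 5.73% of genes had the opposite ordering. Because the 10 genes were chosen with earlier results of these data known, these counts beside all genes are description only. DESeq2's Wald test passed 2 of the 10, Homer1 (adjusted p = 0.0369) and Nr4a2 (adjusted p = 0.00426), and 0.264% of all genes; on simulated data a larger share of its calls was false than of edgeR's.

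**Figure D1:**
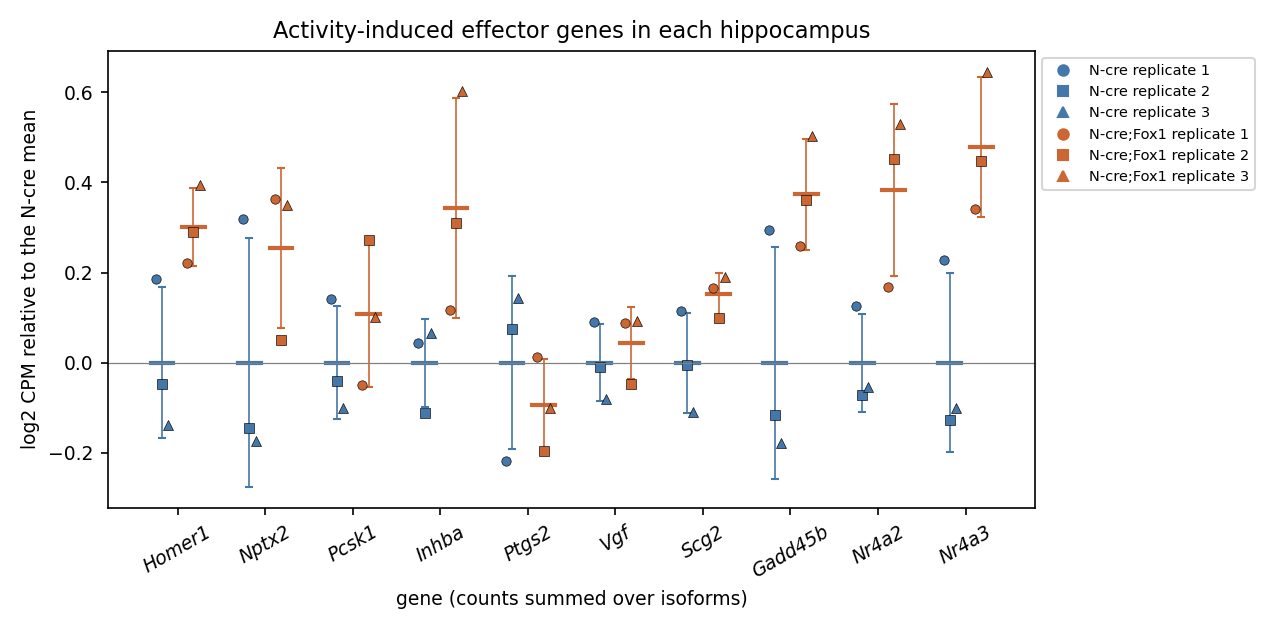
Level of each effector gene in each mouse as log2 CPM minus the mean log2 CPM of the N-cre mice; points are mice, the short lines are group means and the bars 1 SD (n = 3). The N-cre;Fox1 mean lies above the N-cre mean in 9 genes and below it in Ptgs2, and N-cre replicate 1 is the highest control in 8 genes.

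Levels per length spread over a wide range, and 4 pairs of neighbours in their order overlapped across the 6 mice. CPM per kilobase of transcript was highest for Scg2, at a mean of 78.66 (68.87 to 85.12 over the mice), followed by Vgf at 58.61 (54.7 to 61.86); both encode granins, precursors of secreted neuropeptides, and their ranges did not overlap. Homer1 (24.26), Nr4a2 (20.26) and Nr4a3 (18.6) came next, with ranges that overlapped from each gene to the next. Nptx2 (10.32) and Gadd45b (10.26) overlapped each other but neither Nr4a3 above nor Pcsk1 below. Pcsk1 (6.497) and Ptgs2 (5.229) overlapped, and Inhba was lowest at 0.94 (0.76 to 1.24), below every other gene in every mouse.

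Homer1 (ENSMUSG00000007617.18, chr13:93299635-93405129, plus strand, GRCm38) had 105.2, 89.46 and 84.01 CPM in N-cre and 107.8, 113.0 and 121.5 CPM in N-cre;Fox1 mice. The groups did not overlap, but N-cre replicate 1 and N-cre;Fox1 replicate 1 lay within 3 CPM of each other. Its log2 fold change was 0.30 (SE 0.0904, adjusted p = 0.730 in edgeR's quasi-likelihood test). Of its 12 annotated isoforms 6 passed the low count filter, 2 long and 4 short, where short means a complete coding sequence of under 250 codons and long one of at least 300. Homer1-204, with 186 codons, is the Homer1a form: its last exon extends into the intron that follows the fifth exon of the long isoforms, and it spans chr13:93304495-93360462. The long isoforms Homer1-202 (370 codons) and Homer1-203 (366 codons) run on to further exons downstream of it.

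**Figure D2:**
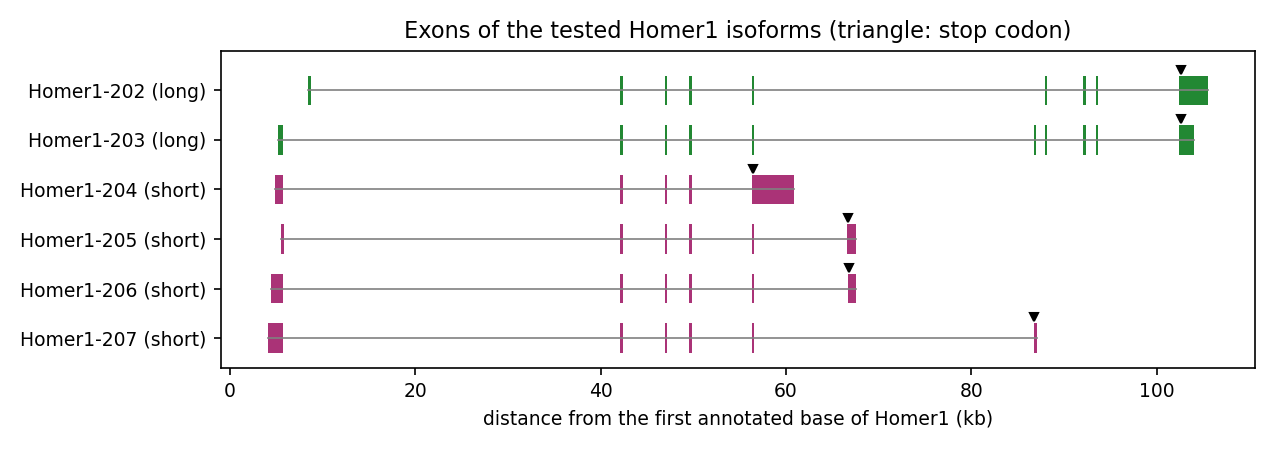
Exons (boxes) and introns (lines) of the 6 tested Homer1 isoforms against the distance in kb from the first annotated base of the gene; short forms are purple, long forms green and the triangle marks the stop codon. The stop codon of Homer1-204 lies in the fifth exon, which continues as a long 3′ UTR, whereas the stop codon of the long forms lies in the last exon of the gene.

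The difference in Homer1 lay in the short form. Homer1-204 had 36.17, 23.51 and 20.76 CPM in N-cre and 42.08, 47.69 and 52.14 CPM in N-cre;Fox1 mice. All 3 N-cre;Fox1 mice were above all N-cre mice, and the highest control was again replicate 1. Its log2 fold change of 0.82 (SE 0.217) was a 1.761-fold difference, with an adjusted p of 0.945 over 50556 isoforms in edgeR and of 0.0297 in DESeq2, and of up to 1.00 over the other alternatives. Most of DESeq2's isoform calls on simulated data of this design were false. The long Homer1-203 had 31.11, 33.97 and 31.2 CPM in N-cre and 32.01, 31.88 and 30.91 CPM in N-cre;Fox1 mice, a log2 fold change of -0.02 (SE 0.0528). The other long form, Homer1-202, had 30.7, 28.17 and 26.21 CPM against 26.87, 22.82 and 27.25 CPM, which overlapped, with a log2 fold change of -0.15 (SE 0.0930). Among the minor short forms, Homer1-205 (203 codons) had 1.641, 0.29 and 0.20 CPM in N-cre and 1.545, 2.803 and 4.5 CPM in N-cre;Fox1 mice, with overlap between the replicate 1 mice. Homer1-206 and Homer1-207 had log2 fold changes of 0.39 and 0.16 with SEs of 0.285 and 0.420.

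As a share of short and long counts together, the short forms made up 41.47% (Wilson 95% interval 40.28 to 42.67), 30.9% (29.49 to 32.35) and 31.74% (30.21 to 33.33) in the N-cre mice. In the N-cre;Fox1 mice they made up 45.51% (44.23 to 46.79), 51.43% (50.21 to 52.63) and 52.14% (50.98 to 53.29). These intervals cover counting error only, since the division of reads among isoforms is itself an estimate. The N-cre mean was 34.7% ± 5.87 (SD, n = 3) and the N-cre;Fox1 mean 49.7% ± 3.64 (SD, n = 3), a difference of 14.99 percentage points with p = 0.1 in a two-sided exact permutation test, the smallest p that 3 against 3 mice allow. The summed short forms had 32.76 ± 9.56 CPM (SD, n = 3) in the controls against 56.82 ± 7.16 CPM (SD, n = 3) with the transgene, a ratio of 1.735. The summed long forms had 60.45 ± 2.64 CPM (SD, n = 3) and 57.25 ± 2.23 CPM (SD, n = 3), a ratio of 0.947, and overlapped (exact permutation p = 0.3). Per length, the long forms remained the more abundant in every mouse, at 15.77 to 17.70 against 5.93 to 14.69 CPM per kilobase for the short forms.

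**Figure D3:**
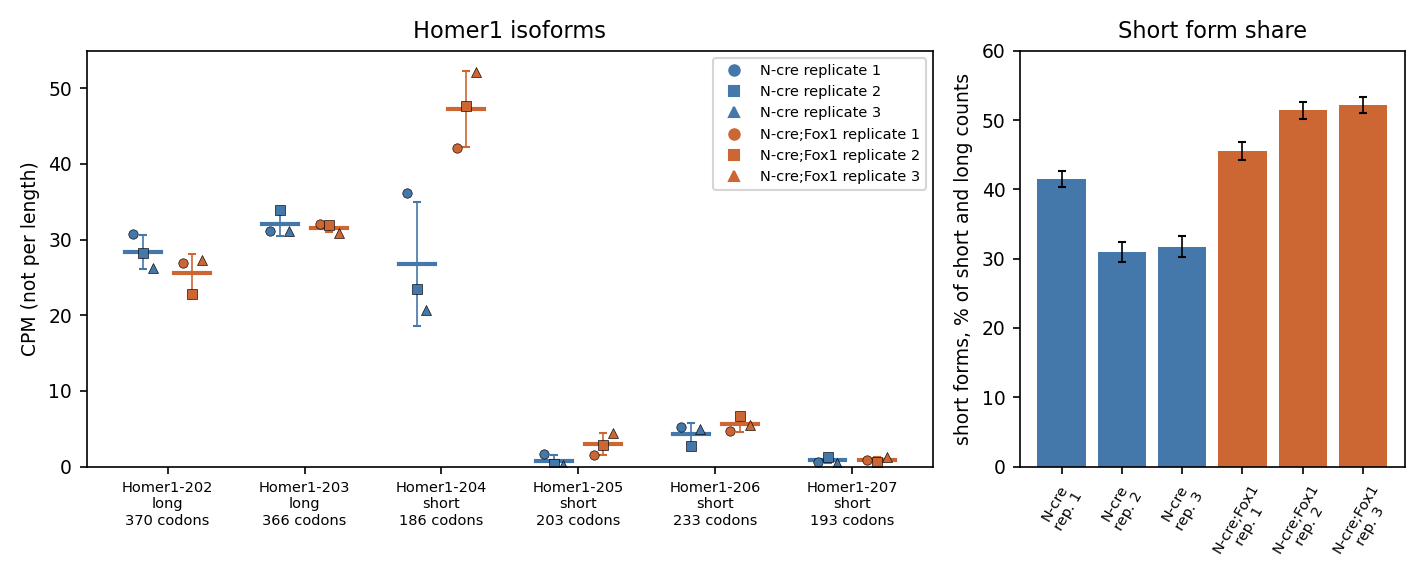
Left, CPM of each tested Homer1 isoform in each mouse (points), with group means and 1 SD (n = 3); right, the short forms as a percent of short and long counts, with bars from 0 and Wilson 95% intervals. Homer1-204 is above 42 CPM in all N-cre;Fox1 mice and below 37 CPM in all N-cre mice, the long forms lie close together, and the short share is lowest in N-cre replicates 2 and 3.

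Rbfox proteins bind TGCATG in RNA, and the isoforms of Homer1 differ in that hexamer. In the M21 transcript sequences, 43% of 48749 tested isoforms held at least 1 TGCATG, at 0.293 per kilobase. Homer1-204 held 2, both in its 3′ UTR, and Homer1-205 and Homer1-206 shared 1, whereas Homer1-202, Homer1-203 and Homer1-207 held none. The windows of Homer1 are shown because they lie in short forms and not in the long ones, and those of Nr4a2 and Inhba for comparison, with TGCATG in capitals. At 0.35 per kilobase, Homer1-204 was near the rate over all isoforms.
Homer1-204, site at chr13:93359050-93359055: tgtgttattatTGCATGttgagatgcaa
Homer1-204, site at chr13:93360384-93360389: tttggaggtacTGCATGtatcttccact
Homer1-205 and Homer1-206, site at chr13:93367061-93367066: aataatttggcTGCATGagatgttaaat
Nr4a2-201, Nr4a2-203 and Nr4a2-206, site at chr2:57107155-57107160 (minus strand): taaacaaaactTGCATGcagcagctttt
Inhba-201, site at chr13:16029757-16029762: tatgcaggaaaTGCATGtactgcataag
Nr4a2-201 held a further TGCATG in its 5′ UTR, which the noncoding Nr4a2-205 shares. Pcsk1-201 held 2, of which 1 was in its coding sequence, and Vgf-201 and Vgf-204 shared 1 in the 3′ UTR. The tested isoforms of Scg2, Nr4a3, Gadd45b, Nptx2 and Ptgs2 held none. Only TGCATG in spliced transcripts was searched. The shorter GCATG, which the paper also counts as an Rbfox1 binding site, and the introns were not. Whether Rbfox1 binds these windows was not tested.

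The orphan nuclear receptors Nr4a2 (Nurr1) and Nr4a3 (NOR1), transcription factors that are active without a ligand, had the largest gene-level differences. Nr4a2 (chr2:57106830-57124003, minus strand) had 62.61, 54.62 and 55.33 CPM in N-cre and 64.49, 78.57 and 82.84 CPM in N-cre;Fox1 mice. The groups did not overlap. The log2 fold change, 0.39 (SE 0.110, adjusted p = 0.727 in edgeR), had the lowest adjusted p of the 10 genes. Without N-cre;Fox1 replicate 1 it was 0.49 with an adjusted p of 0.0264 in edgeR, so that mouse decided the call. Nr4a3 (chr4:48045153-48086447, plus strand) had 100.7, 78.68 and 80.14 CPM in N-cre and 108.9, 117.2 and 134.5 CPM in N-cre;Fox1 mice, a log2 fold change of 0.47 (SE 0.132, adjusted p = 0.730 in edgeR). In both genes the replicate 1 mice, the highest control and the lowest N-cre;Fox1 mouse, were next to each other in the order.

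The Nr4a2 isoforms differed in size of change. The noncoding Nr4a2-205 had 0.76, 0.83 and 0.86 CPM in the controls and 1.452, 1.582 and 2.013 CPM in N-cre;Fox1 mice without overlap, and at a log2 fold change of 1.04 (SE 0.207) it had the lowest adjusted p of all 24 member isoforms, 0.731 in edgeR, which did not pass. Nr4a2-201, one of the isoforms that encode the full 598 codons, had 27.05, 20.36 and 19.23 CPM in N-cre and 27.41, 37.53 and 28.18 CPM in N-cre;Fox1 mice. Nr4a2-203, which encodes the same 598 codons from an upstream start, had 24.58, 26.07 and 24.48 CPM against 23.34, 27.76 and 36.19 CPM and overlapped. Nr4a2-202 had a log2 fold change of 0.55 (SE 0.222) with overlap and Nr4a2-206 of 0.10 (SE 0.476). In Nr4a3, the isoform Nr4a3-201 (627 codons) had 76.0, 54.98 and 57.19 CPM against 78.22, 97.63 and 102.1 CPM, a log2 fold change of 0.56 (SE 0.157), and Nr4a3-203 (656 codons) overlapped at 25.08, 24.12 and 23.08 against 30.78, 19.09 and 32.45 CPM.

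Gadd45b, a stress and activity-induced protein linked to active DNA demethylation at activity-regulated promoters (chr10:80930073-80932204), had 13.78, 10.36 and 9.932 CPM in N-cre and 13.44, 14.42 and 15.93 CPM in N-cre;Fox1 mice. The groups overlapped only through the replicate 1 mice, and the log2 fold change was 0.36 (SE 0.129, adjusted p = 0.770 in edgeR). The protein-coding Gadd45b-201 carried 95.22% to 98.23% of the gene's counts in every mouse, and its share did not separate the genotypes.

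Among the secreted synaptic factors, Inhba, the subunit of activin A (chr13:16011851-16031621), had 5.387, 4.834 and 5.471 CPM in N-cre and 5.664, 6.47 and 7.931 CPM in N-cre;Fox1 mice. The 2 groups did not overlap, by a margin of under 1 CPM, and the log2 fold change was 0.35 (SE 0.133, adjusted p = 0.770 in edgeR). It was 0.21 without N-cre;Fox1 replicate 3, the highest mouse. Nearly all its counts were of Inhba-201. Nptx2, a pentraxin that clusters AMPA receptors (chr5:144545902-144557478), had 29.49, 21.41 and 20.97 CPM in N-cre and 30.44, 24.5 and 30.17 CPM in N-cre;Fox1 mice. It overlapped between the genotypes, with a log2 fold change of 0.24 (SE 0.167, adjusted p = 0.898 in edgeR), and N-cre replicate 1 lay within 1 CPM of the highest N-cre;Fox1 mice. Without that mouse it was 0.42, and without N-cre replicate 3 it was 0.15.

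Scg2, secretogranin II (chr1:79434669-79440120, minus strand), had 195.3, 179.8 and 167.4 CPM in N-cre and 202.6, 193.3 and 205.9 CPM in N-cre;Fox1 mice. This was a log2 fold change of 0.15 (SE 0.0540, adjusted p = 0.764 in edgeR), or 0.0964 without N-cre replicate 3. The difference lay in 1 of its 2 isoforms. Scg2-202 (577 codons) had 86.94, 72.71 and 71.77 CPM in N-cre and 101.8, 89.89 and 99.79 CPM in N-cre;Fox1 mice without overlap, a log2 fold change of 0.33 (SE 0.0893). Scg2-201 (617 codons) had 109.2, 108.1 and 95.84 CPM against 101.3, 102.8 and 106.2 CPM, a log2 fold change of -0.01 (SE 0.0573). Scg2-202 made up 44.33%, 40.22% and 42.83% of Scg2 counts in N-cre and 50.13%, 46.65% and 48.44% in N-cre;Fox1 mice, a difference of 5.948 percentage points (two-sided exact permutation p = 0.1). The replicate 1 mice differed in this share too.

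Vgf, the other granin (chr5:137026392-137033351), differed little, at 152.5, 142.3 and 135.6 CPM in N-cre and 152.4, 138.6 and 152.8 CPM in N-cre;Fox1 mice, with a log2 fold change of 0.04 (SE 0.0525). Its short annotated isoform Vgf-203 (140 codons) had 8.414, 6.315 and 6.269 CPM against 5.955, 5.159 and 6.09 CPM, the only member isoform that was lower without overlap. Pcsk1, the prohormone convertase that cleaves such precursors (chr13:75089826-75134861), had 34.62, 30.52 and 29.28 CPM in N-cre and 30.32, 37.91 and 33.69 CPM in N-cre;Fox1 mice and overlapped, with a log2 fold change of 0.11 (SE 0.0934). Leaving out 1 mouse at a time gave 0.0219 (without N-cre;Fox1 replicate 2) to 0.18 (without N-cre replicate 1) for Pcsk1 and 0.00469 (without N-cre replicate 3) to 0.0903 (without N-cre replicate 1) for Vgf.

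Ptgs2, the inducible cyclooxygenase of prostaglandin synthesis (chr1:150100031-150108227), ran the other way. It had 20.61, 25.22 and 26.47 CPM in N-cre and 24.16, 20.93 and 22.34 CPM in N-cre;Fox1 mice, a log2 fold change of -0.10 (SE 0.0966, adjusted p = 0.935 in edgeR), and of -0.20 without N-cre replicate 1 and -0.0267 without N-cre replicate 3. The lowest mouse was N-cre replicate 1, which was the highest control for 8 of the other genes. Across the 6 mice its level had a Pearson r of -0.75 with the mean of the other 9 genes, whereas Nr4a3 had 0.99, Homer1 0.98 and Gadd45b 0.98 with theirs. These r are descriptions over 6 mice of 2 genotypes.

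Of the 39 isoforms, 24 passed the low count filter, 10 had counts under it (at most 16.17 in a mouse) and 5 were listed at 0 in every mouse. Of the 24, 18 were higher and 6 lower in N-cre;Fox1, with a median log2 fold change of 0.22 against 0.00 over all isoforms. None passed an adjusted p of 0.05, as 0% of all 50556 isoforms did in edgeR. The paper used another test, EBSeq, and another expression filter, and did report differentially expressed isoforms. In edgeR an unadjusted p under 0.05 was reached by 7 of the 24 isoforms, all higher, where 2.62% of all isoforms were higher and 2.17% lower. In 6 isoforms all N-cre;Fox1 mice were above all N-cre mice (5.85% of all isoforms) and in 1, Vgf-203, below (5.68%). Within the 6 genes with more than 1 tested isoform, 20 isoform shares were compared. The shares of Homer1-204, Vgf-201, Scg2-202 and Nr4a2-205 were higher without overlap (5.84% of isoform shares in all such genes). Those of Homer1-202, Vgf-203 and Scg2-201 were lower (5.37%). Each had an exact permutation p of 0.1, the smallest possible, and 0.286 after Benjamini-Hochberg adjustment over the 20 shares. Shares within a gene depend on each other, and the 2 Scg2 shares are complements of 1 shift.

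**Figure D4:**
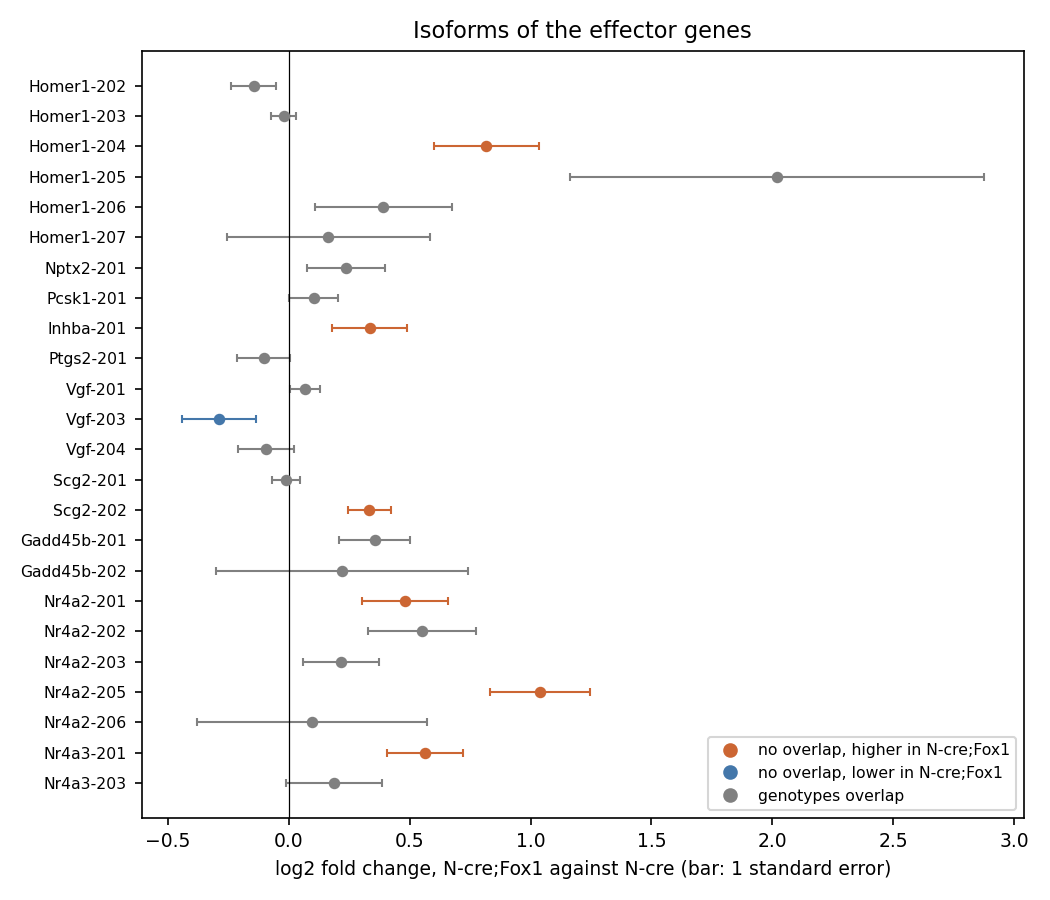
Log2 fold change of each of the 24 tested isoforms, N-cre;Fox1 against N-cre, with 1 standard error from edgeR; the colour gives whether the genotypes overlap. Most points lie right of 0, Homer1-205 lies farthest at 2.02 with an SE of 0.856, and the long Homer1 forms, Scg2-201 and the Vgf forms lie near 0 or left of it.

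The size of the difference depended on which mice were compared. In the replicate 1 mice, both with high Xist, 7 of the 10 genes were higher in the N-cre;Fox1 mouse, but the median log2 difference was 0.04 and there is no replicate within this pair. In replicates 2 and 3, with low Xist, 8 genes were higher and Ptgs2 lower without overlap, at a median log2 difference of 0.40; 20.5% of all genes were higher and 18.6% lower without overlap in the same 4 mice. Fitted on these 4 mice alone, a comparison added after the data were seen, edgeR passed 4 of the 10 genes against 0.342% of all genes. They were Nr4a2 (log2 fold change 0.55, adjusted p = 0.00130), Homer1 (0.43, adjusted p = 0.00891), Nr4a3 (0.66, adjusted p = 0.0179) and Gadd45b (0.58, adjusted p = 0.0493). Over all alternatives tried, the adjusted p of each of these 4 reached up to 1.00. At an unadjusted p under 0.05, 8 of the 10 were higher, where 5.43% of all genes were, and Ptgs2 was lower at a log2 fold change of -0.26. With 2 mice a group these calls rest on 2 against 2, and whether the genotype difference itself differs between mice of high and low Xist was not tested.

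N-cre replicate 3 and N-cre;Fox1 replicate 2 stood apart by their choroid plexus transcripts, whose part in the effector values was not tested. All 8 choroid plexus markers had a higher mean in N-cre;Fox1 mice, with log2 fold changes of 0.63 to 1.27 and overlap in each. Without those 2 mice the median log2 fold change of the 10 genes was 0.24, 9 were higher in mean with Pcsk1 the lower one (-0.0256) and Ptgs2 at 0.0244, and 2 were higher at an unadjusted p under 0.05 in edgeR, Inhba and Scg2, where 2.91% of all genes were. Homer1 had a log2 fold change of 0.24 and Nr4a3 of 0.44 in that comparison. N-cre replicate 3 had the lowest level of 6 of the 10 genes, and N-cre;Fox1 replicate 3, which was low in choroid plexus transcripts, the highest level of 7.

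The rapid immediate early genes, a wave earlier, were compared as a list of 18, all tested. Of these 17 were higher and 1 lower with the transgene, with a median log2 fold change of 0.36, and 0 passed the adjusted threshold. An unadjusted p under 0.05 was reached by 4, all higher, where 3.88% of all genes were higher. The same 4, Fosb, Fosl2, Egr4 and Klf4, were higher without overlap, as were 6.54% of all genes. The largest differences were in the transcription factors Egr2 (0.93, SE 0.367), Fos (0.71, SE 0.292), Fosb (0.65, SE 0.184) and Egr4 (0.58, SE 0.145). Fos had 22.16, 23.99 and 23.39 CPM in N-cre and 23.57, 42.88 and 46.79 CPM in N-cre;Fox1 mice, so that N-cre;Fox1 replicate 1 was at the control level. The list medians by mouse, relative to the N-cre mean, were 0.05, -0.05 and 0.06 in N-cre and 0.01, 0.47 and 0.49 in N-cre;Fox1 mice. For the 10 effector genes the same medians were 0.13, -0.06 and -0.10 in N-cre and 0.17, 0.28 and 0.37 in N-cre;Fox1 mice. By list median, N-cre replicate 1 stood out among the controls in the effector genes and not in the rapid genes. Single rapid genes deviated in that mouse in both directions. It was the highest control in Fosb (16.94 against 12.63 and 13.51 CPM) and the lowest in Btg2 (15.58 against 27.73 and 30.12 CPM). These differences between mice were not tested. In the 4 mice of low Xist, 7 of the 18 rapid genes passed in edgeR, where 0.342% of all genes did. They were Fos, Fosb, Fosl2, Junb, Egr1, Egr2 and Egr4.

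**Figure D5:**
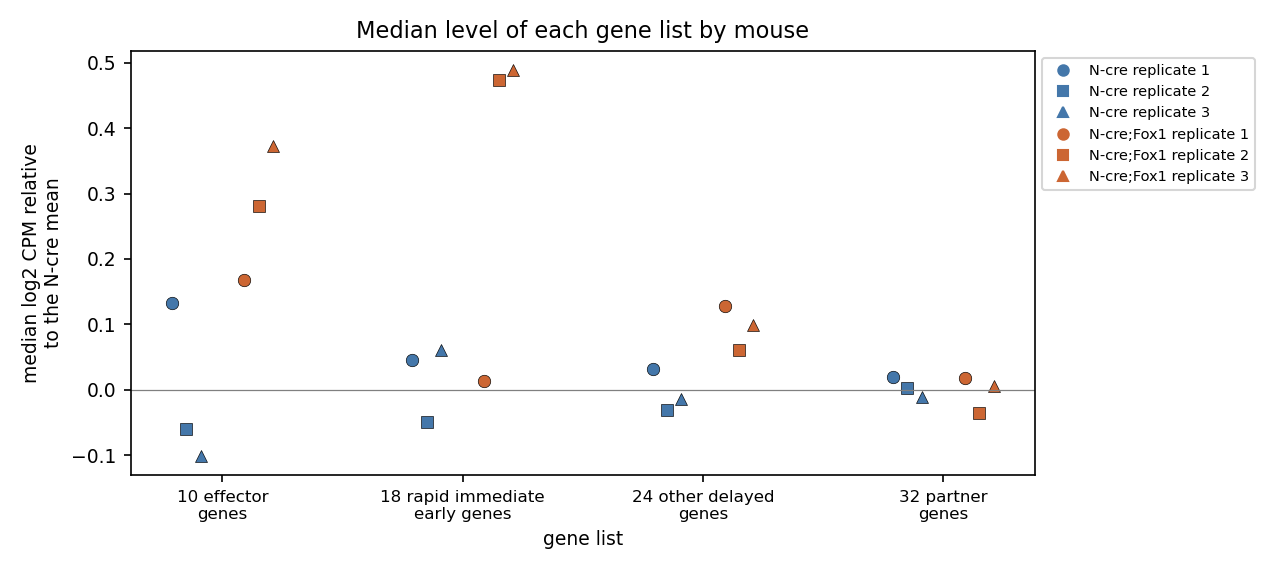
Median over the genes of each list of log2 CPM (pseudocount 0.05) minus the mean of the N-cre mice, for each mouse. The rapid genes put N-cre;Fox1 replicates 2 and 3 at 0.47 and 0.49 and the other 4 mice near 0, the effector genes spread the mice more evenly, and the partner genes stay within 0.04 of 0.

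A list of 24 other delayed genes moved less. Of these 18 were higher and 6 lower, with a median log2 fold change of 0.05, and 0 passed the adjusted threshold. At an unadjusted p under 0.05, 8 were higher and 0 lower, where 3.88% of all genes were higher and 2.43% lower. Without overlap, 6 were higher and 0 lower, where 6.54% and 5.73% of all genes were. The largest were Sik1, a kinase of CREB coactivators (0.52, SE 0.204), Nfil3, a bZIP repressor (0.44, SE 0.133), Tiparp (0.30, SE 0.0918) and Dusp5, a MAP kinase phosphatase (0.29, SE 0.117). Nptx1, a relative of Nptx2 that is also in the partner and CA3 lists, had 0.03, and the kinase gene Plk2 -0.05. The lists were not tested against each other.

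Transcripts of the partners of the effectors had differences in both directions. Of 32 partner genes, 17 were higher and 15 lower with a median log2 fold change of 0.01, and 0 passed the adjusted threshold. The Homer-binding scaffolds Shank1, Shank2 and Shank3 had -0.03, -0.06 and 0.02, and the receptor Grm5 -0.04. The long Homer relatives Homer2 and Homer3 had 0.00 and 0.04. The other granins Chga and Chgb had -0.03 and -0.02, the convertase Pcsk2 had -0.04, and Nptxr, the receptor of the pentraxins, had 0.04. The largest were Nr4a1, the third member of the NR4A family and also in the rapid list (0.39, SE 0.174), Ptger2, a prostaglandin receptor at under 1 CPM (0.29, SE 0.294), Gadd45g (0.22, SE 0.0776) and Fst, which binds activin (-0.22, SE 0.262). Of this list Gadd45g and Tet3, an enzyme that oxidizes methylcytosine, had an unadjusted p under 0.05, both higher, where 3.88% of all genes were.

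Markers of the cells that express these genes were compared in the same way. Of the 6 CA1 pyramidal markers 6 had a lower mean in N-cre;Fox1 mice, with log2 fold changes of -0.35 (Wfs1, without overlap) to 0.00, and summed to 730.5 to 802.8 CPM in N-cre and 673.6 to 728.6 CPM in N-cre;Fox1 mice. The 8 dentate granule cell markers had 5 higher and 3 lower, with sums of 384.4 to 395.7 and 362.2 to 434.5 CPM. The CA3, interneuron, oligodendrocyte, microglia and endothelial lists had median log2 fold changes between -0.02 and 0.08, and a list of thalamus and striatum markers had -0.03. Of the 8 astrocyte markers 4 were higher and 4 lower, with a median of 0.01. Values ran from -0.21 (Fgfr3, SE 0.0756) to 0.39 (Gfap, SE 0.0688, adjusted p = 0.309 in edgeR). Gfap, Aqp4 (0.21, SE 0.0498) and Gja1 (0.10, SE 0.0309) were higher without overlap and 0 markers lower, where 6.54% and 5.73% of all genes were. The part of cell composition in the effector genes was not tested.

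Outside the 10 genes, those whose level over the 6 mice was most like the mean of the effectors, of 13733 genes with a mean count of at least 100, were Cttnbp2 (Pearson r 0.996), Zfp874a (0.994), March2 (0.994), Hsf2 (0.993) and Zfp451 (0.992). All 5 were higher in every N-cre;Fox1 mouse than in any N-cre mouse, with log2 fold changes of 0.06 to 0.16. They were chosen for following the effector mean, so this order comes with the choice and is not a separate result. Cttnbp2, which encodes a cortactin-binding protein of dendritic spines, had 220.2, 200.1 and 196.9 CPM in N-cre and 221.0, 224.8 and 242.6 CPM in N-cre;Fox1 mice, and it too had the replicate 1 mice side by side. With 6 mice and so many genes, high r of this kind are a description only.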

How the data were processed

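The authors sequenced total hippocampal RNA (stranded libraries) of 6 mice, 3 of each genotype, trimmed reads with cutadapt (1.18), aligned them with STAR (2.5.2b) to mm10 with GENCODE annotation and deposited RSEM (1.3.0) expected counts per isoform; the versions are those of the submitters' processing notes. Between 81.94% and 82.73% of the values above 0 were not whole. Here they were rounded and summed by gene symbol. The groups and replicate numbers came from the titles. Nothing in the labels says how the animals were related, and the tests treated the mice as independent. The edgeR p-values set the genotype difference against the variation between mice of a genotype.

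Counts were scaled by TMM and tested with edgeR (4.0.16, R 4.3.3) by the robust quasi-likelihood test with genotype as the only term, after filterByExpr with a minimum count of 10 and a total of 15. That left 18925 genes and 50556 isoforms, over which p-values were adjusted by Benjamini-Hochberg with a threshold of 0.05. CPM are TMM-scaled. Shares were tested by exact permutation over mice (SciPy 1.17.1). DESeq2 (1.42.0) and limma (3.58.1) were alternatives. The fits were tested on simulated data, where DESeq2 made more false calls than edgeR, above all for isoforms, and edgeR's own false share was also above its nominal level. Of the isoform IDs 130921 matched GENCODE M21 on GRCm38, including all those of the 10 genes, and gave lengths, codons and sequences. Isoform values rest on how RSEM divided shared reads, and overlapping genes can share reads.

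The named genes are the 10 effectors and their tested isoforms, in each list the genes past the threshold and up to 4 with the largest difference, the 5 genes most like the effectors, Rbfox1 and Xist; genes named beyond this (scaffolds, receptors, markers) were chosen after their values were seen. The members and the gene lists were chosen with earlier results of these data known. Depth was 40463587 to 62141336 expected counts per mouse, and the 10 genes had 217 to 12177 counts per mouse.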

Additional observations from a re-analysis of the deposited data

How the results depend on the processing

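All 10 gene-level directions were kept under every alternative but 1: without the 2 mice high in choroid plexus transcripts, added after the data were seen, Pcsk1 became -0.0256 and Ptgs2 0.0244 (isoforms Pcsk1-201 -0.0309, Ptgs2-201 0.0167, Gadd45b-202 -0.17 and Nr4a2-206 -0.19). Without the 2 mice with high Xist, also added, 65 genes passed, 4 of the effectors (Homer1 0.43, Gadd45b 0.58, Nr4a2 0.55, Nr4a3 0.66), 7 rapid and 2 other delayed genes, with medians of 0.40 for the effectors and 0.19 for the other delayed genes (0.11 without the choroid plexus mice), and Scg2-201 was 0.0327 and Vgf-204 0.0245. DESeq2's Wald test passed 50 genes and 215 isoforms, among them Homer1 (0.29), Nr4a2 (0.39), 3 rapid genes and Homer1-204. No filter passed 45 genes and 10 isoforms, 10 counts in every mouse 6 isoforms, unrounded counts 1 isoform, and a term for Xist 10 genes, 1 of them in the other delayed list. Leaving out 1 mouse at a time gave 2 (without N-cre replicate 2) to 29 genes (without N-cre;Fox1 replicate 1), 0 to 1 of the effectors, 0 to 4 rapid genes, medians of 0.19 to 0.39 for the effectors and 0.0476 to 0.11 for the other delayed genes, and values of 0.31 to 0.49 for Nr4a2, -0.0462 to 0.0207 for Homer1-203, -0.13 to 0.61 for Homer1-207, -0.0703 to 0.0187 for Scg2-201, -0.0272 to 0.54 for Gadd45b-202 and -0.27 to 0.48 for Nr4a2-206. The short Homer1 share differed by 13.09 to 18.37 percentage points over these and by 14.16 per length. The causes were not tested. Same-numbered mice correlated at 0.378, -0.0955 and -0.210. Among all pairs the highest was 0.439, between the 2 mice high in choroid plexus transcripts, and the pair at 0.378 shared high Xist. These values therefore cannot show whether the numbers pair the mice. With the replicate block 5 genes and 0 isoforms passed, none of the effectors, whose median was 0.28.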
